A study of Homo sapiens with 22 samples.

Results

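The messenger RNAs described here encode enzymes that make the non-essential amino acids serine, glycine, proline, asparagine and cysteine, together with the mitochondrial folate enzyme that takes up the carbon released from serine. They were chosen by symbol: ASNS, PHGDH, PSAT1, PSPH, SHMT1, SHMT2, MTHFD2, ALDH18A1, PYCR1 and CTH, 10 of the 20411 genes in each table, and all 10 passed the filter on low values in both cell lines. MOLM-13, a monocytic acute myeloid leukemia (AML) line with a KMT2A fusion, and NB4, an acute promyelocytic leukemia line, both without any genetic change made for the study, were treated with 2 μM FP54 or with its solvent DMSO for 48 hours. FP54 joins a ligand of the m6A demethylase FTO to a ligand of the ubiquitin ligase subunit VHL, so that FTO protein is degraded. Each of these 4 groups had 3 RNA-seq libraries, which made up 12 of the 22 samples of the series. The other 10 samples (m6A-seq and polysome-seq) were not used here. Both are established cell lines, and the labels do not say whether the libraries of a group came from separate cultures, so that p-values measure the spread between these libraries only.

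Serine is made from a glycolytic intermediate by PHGDH, PSAT1 and PSPH, and is then split into glycine and a one-carbon unit by SHMT1 in the cytosol or by SHMT2 in mitochondria. MTHFD2 oxidizes the one-carbon unit on mitochondrial folate, ALDH18A1 and PYCR1 stand at the first and last step from glutamate to proline, ASNS makes asparagine from aspartate, and CTH releases cysteine from cystathionine. In many cell types, several of these genes are known targets of the transcription factor ATF4, whose translation is favoured when amino acids run short or the initiation factor eIF2 is phosphorylated.

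Levels are given in RPKM as deposited, that is, as reads divided by a gene length and by the total of the library. The length that gave whole reads was that of all exons annotated for a gene, 11443 bases for MTHFD2 and 4592 for SHMT2. Ranks of genes by level and the size of a ratio between genes depend on these lengths. Comparisons of the same gene between libraries do not, as its length is the same in each. The MOLM-13 libraries held 16299701 to 17346914 reads with DMSO and 5829730 to 19191055 reads with FP54. In NB4 cells every FP54 library was shallower (10595647 to 13071303 reads) than every DMSO library (20654055 to 22344266 reads). The 10 genes had at least 55 reads in every library, the fewest for CTH in MOLM-13 cells. In NB4 cells, 416 olfactory receptor genes averaged 0.00168 to 0.00372 RPKM in DMSO and 0.0496 to 0.0549 RPKM in FP54 libraries, far under the lowest value of the 10 genes there (1.36 RPKM for CTH). The mRNA of FTO had a mean of 2.73 ± 0.180 RPKM (SD, n = 3) in DMSO and of 2.03 ± 0.0782 RPKM in FP54 libraries of NB4 cells, which did not pass the call rule given below, and both means were 1.01 RPKM in MOLM-13 cells. Since the agent acts on FTO protein, this is no check of the treatment. The markers fixed for MOLM-13 (HOXA9, HOXA10, MEIS1, FLT3 and PBX3) all had a mean of at least 1 RPKM in MOLM-13 cells, and 3 of 5 did in NB4 cells. With DMSO they summed to 131 to 165 RPKM in MOLM-13 cells and to 19.2 to 21.9 in NB4 cells. HOXA9, MEIS1, FLT3 and PBX3 were higher in MOLM-13 cells, but HOXA10 was higher in NB4 cells (13.2 against 7.30 RPKM with DMSO). Of the markers fixed for NB4, MPO (2170 against 16.1 RPKM with DMSO) and HGF (3.32 against 0.10) were higher in NB4 cells, but AZU1, PRTN3, ELANE and CTSG were higher in MOLM-13 cells, and the identity of the NB4 table rests on its name alone. Erythroid markers summed to at most 0.235 RPKM in any library, fibroblast markers to at most 0.464 and B cell markers to at most 1.73. T cell markers summed to 6.04 to 7.01 RPKM with DMSO and 10.2 to 10.7 with FP54 in NB4 cells, most of it CD3D, and to at most 0.614 in MOLM-13 cells. Epithelial markers summed to 20.1 to 22.0 RPKM with DMSO and 22.25 to 24.3 with FP54 in NB4 cells, and to at most 8.98 in MOLM-13 cells. With DMSO, EPCAM was at 8.15 RPKM in NB4 and 0.0158 in MOLM-13 cells. Some of the markers fixed for NB4 moved with FP54 in NB4 cells, where MPO went from 2170 to 1116 RPKM, CTSG from 58.5 to 9.49, PRTN3 from 61.0 to 15.9 and HGF from 3.32 to 0.242. In MOLM-13 cells MPO went from 16.1 to 3.79 RPKM and CTSG from 116 to 62.1, while AZU1 went from 174 to 215. CD68 went from 192 to 418 RPKM in MOLM-13 and from 9.44 to 18.8 RPKM in NB4 cells. The 5 general myeloid markers (CD33, SPI1, LYZ, CEBPA and CD68) together summed to 165 to 194 RPKM with DMSO and 149 to 170 with FP54 in NB4 cells. In MOLM-13 cells they summed to 941 to 996 and 1250 to 1427 RPKM. The summed markers fixed for NB4 ranged from 2154 to 2413 RPKM with DMSO and from 1115 to 1183 with FP54 in NB4 cells, and from 727 to 1074 and 596 to 1055 in MOLM-13 cells. The part of these cell markers and of depth in the results was not tested. On the first principal component of MOLM-13 cells, with 64.9% of the variance, DMSO replicate 2 lay at -10.3, nearer to the FP54 libraries (16.1 to 39.7) than DMSO replicates 1 and 3 did (-30.4 and -33.8). It held the lowest DMSO value of 8 of the 10 genes, so the count of the 10 genes called in MOLM-13 cells is given with and without it. The counts of overlap and of the lists of related genes are given only with it.

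With FP54, these mRNAs were mostly lower in MOLM-13 cells and mostly higher in NB4 cells. Genes were called in limma on log2(RPKM + 0.1) where p was under 0.01 and the log2 fold change was 0.5 or more in size. By this rule 5 of the 10 genes fell and 0 rose with FP54 in MOLM-13 cells (PHGDH, PSAT1, PSPH, PYCR1 and CTH fell), beside 9.04% of the 9710 genes tested that fell and 9.3% that rose. In NB4 cells 7 rose (all except PSPH, SHMT1 and ALDH18A1) and 1 fell (ALDH18A1), beside 18.6% of 9853 genes that rose and 10.7% that fell. The median log2 fold change of the 10 genes was -0.91 in MOLM-13 cells, against 0.0033 over all genes, and 0.80 in NB4 cells, against 0.07 over all genes. The 10 genes and the lists of related genes below were chosen with earlier results of these data known. Counts and medians set beside those of all genes are therefore a description only. Without DMSO replicate 2 the count in MOLM-13 cells was 7, with ASNS and ALDH18A1 added. Without FP54 replicate 3, which held the highest FP54 value of 7 of the 10 genes, it was 8. PYCR1 was lost, which left 4, when either DMSO replicate 3 or FP54 replicate 1 was left out. The share of all genes called was not counted without these libraries, so the 9.04% above belongs to the main fit only. In bulk RNA, fewer cells that express a gene and less RNA per cell cannot be told apart.

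**Figure D1:**
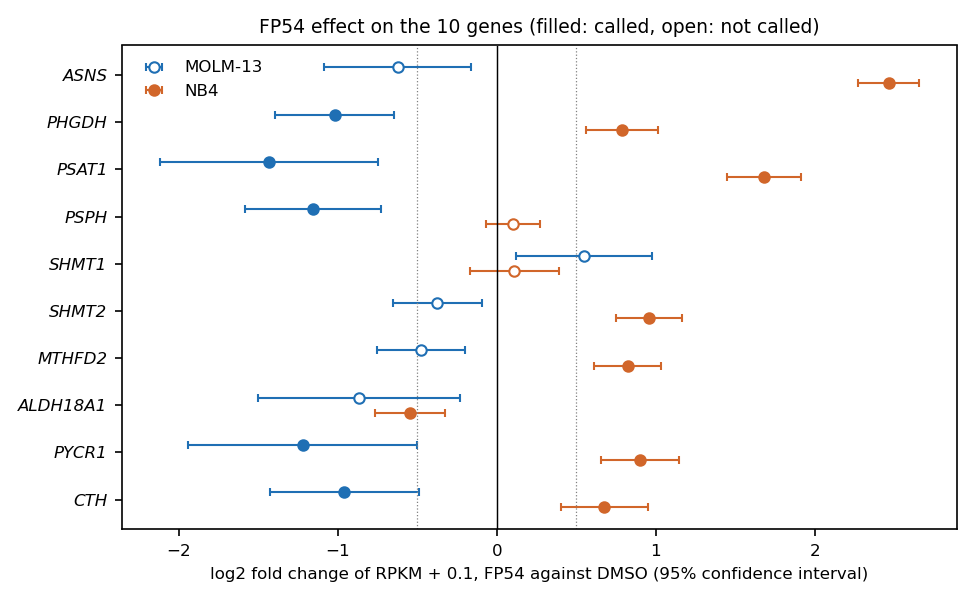
Log2 fold change of RPKM + 0.1, FP54 against DMSO, for the 10 genes in MOLM-13 (blue) and NB4 cells (orange), with 95% confidence intervals from limma and 3 libraries per group. Filled points passed the call rule and dotted lines mark its fold cutoff of 0.5. In MOLM-13 cells 9 of 10 points lie left of 0, SHMT1 (0.55, not called) being the exception, and in NB4 cells 9 of 10 lie right of 0, ALDH18A1 (-0.55) being the exception.

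All 3 enzymes of the serine arm fell in MOLM-13 cells, and 2 of the 3 rose in NB4 cells. PHGDH (gene span chr1:119648411-119744218 on the + strand of hg38, from GENCODE v44 as for the other genes), the first and rate-limiting enzyme of serine synthesis, was at 24.1, 22.9 and 27.2 RPKM in DMSO replicates 1 to 3 and at 9.57, 13.7 and 13.6 RPKM in FP54 replicates 1 to 3 of MOLM-13 cells. All FP54 values lay under all DMSO values, and the mean with FP54 was 49.7% of that with DMSO. In NB4 cells it was at 16.4, 20.9 and 19.4 RPKM with DMSO and at 31.7, 34.5 and 31.5 RPKM with FP54, again without overlap but upward, 1.72-fold. The log2 fold change was -1.02 ± 0.17 (SE) in MOLM-13 cells (limma, Benjamini-Hochberg adjusted p = 0.00513) and 0.79 ± 0.10 in NB4 cells (adjusted p = 0.000123).

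PSAT1 (chr9:78297125-78330093, + strand), the aminotransferase of the second step, had larger fold changes than PHGDH in both lines. MOLM-13 cells held 56.2, 37.7 and 51.8 RPKM with DMSO and 11.7, 15.1 and 31.2 RPKM with FP54. The groups did not overlap, but FP54 replicate 3 stood well above the other FP54 libraries, and the SD with FP54 was 10.4 RPKM around a mean of 19.3 RPKM. NB4 cells held 30.3, 23.6 and 30.4 RPKM with DMSO and 93.0, 88.8 and 87.8 RPKM with FP54, a 3.20-fold increase. The log2 fold change of PSAT1 was -1.43 ± 0.31 (adjusted p = 0.0132) in MOLM-13 cells and 1.68 ± 0.11 (adjusted p = 1.03e-06) in NB4 cells. GENCODE lists 4 pseudogene copies of PSAT1 and 1 of PSPH, whose reads could be shared with these genes.

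PSPH (chr7:56011051-56051604, - strand), the phosphatase of the last step, fell in MOLM-13 cells only by the call rule, and the difference between the lines was itself significant, as given below. Its values were 21.7, 17.0 and 22.7 RPKM with DMSO and 6.89, 10.1 and 10.6 RPKM with FP54, a log2 fold change of -1.16 ± 0.19 (adjusted p = 0.00518). In NB4 cells PSPH was at 42.1, 42.4 and 40.2 RPKM with DMSO and at 45.6, 45.1 and 43.1 with FP54. All 3 FP54 libraries lay above all DMSO libraries there, yet the log2 difference was 0.10 (95% interval -0.07 to 0.27, adjusted p = 0.288). Within NB4 libraries the ratios between the 3 enzymes of the arm differed between treatments. The ratio of PSPH to PHGDH went from 2.22 ± 0.294 (SD, n = 3) with DMSO to 1.37 ± 0.0664 with FP54 and that of PSAT1 to PHGDH from 1.51 ± 0.362 to 2.77 ± 0.181, both without overlap. In MOLM-13 cells the same ratios overlapped between treatments (0.824 ± 0.0798 against 0.745 ± 0.0291, and 1.96 ± 0.346 against 1.54 ± 0.651).

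**Figure D2:**
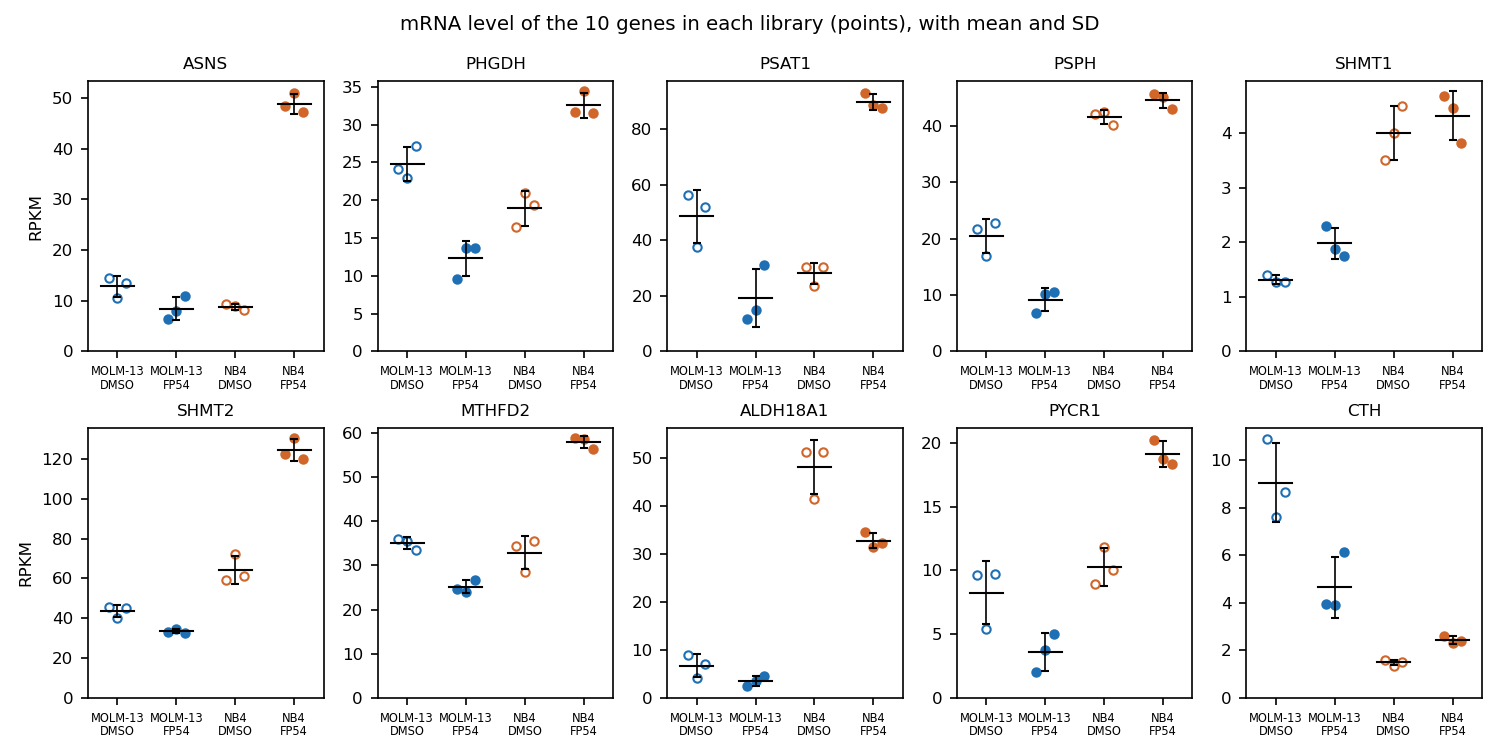
RPKM of the 10 genes in each of the 12 libraries (points, open for DMSO and filled for FP54), with the mean and SD of the 3 libraries of each group, on linear axes that start at 0. ASNS sits at 8.11 to 9.29 RPKM with DMSO and at 47.2 to 51.0 with FP54 in NB4 cells, while in MOLM-13 cells its 2 groups overlap.

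The pair of serine hydroxymethyltransferases behaved differently from each other. SHMT2 (chr12:57229573-57234935, + strand), the mitochondrial enzyme, was at 45.5, 40.1 and 45.0 RPKM with DMSO and at 33.3, 34.5 and 32.8 RPKM with FP54 in MOLM-13 cells. These did not overlap, but the log2 difference of -0.37 ± 0.13 passed neither the fold nor the p cutoff (adjusted p = 0.0619). In NB4 cells SHMT2 rose from 59.1, 72.4 and 61.3 RPKM to 123, 131 and 120 RPKM, with a log2 fold change of 0.96 ± 0.093 (adjusted p = 1.98e-05), and was the most abundant of the 10 per length. SHMT1 (chr17:18327860-18363563, - strand), the cytosolic enzyme, was among the lowest. It was at 1.40, 1.28 and 1.27 RPKM with DMSO and at 2.31, 1.88 and 1.75 with FP54 in MOLM-13 cells, the single gene of the 10 whose FP54 libraries all lay above its DMSO libraries there. Its log2 difference of 0.55 ± 0.19 was not called (limma, adjusted p = 0.0727). In NB4 cells SHMT1 was at 3.51, 4.01 and 4.50 RPKM with DMSO and at 4.70, 4.46 and 3.83 with FP54, which overlapped, and the log2 difference was 0.11 (95% interval -0.17 to 0.39), or -0.095 after quantile normalization.

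The ratio of SHMT2 to SHMT1 within a library combines both. In MOLM-13 cells it was 32.4, 31.4 and 35.3 with DMSO and 14.4, 18.3 and 18.7 with FP54, and in NB4 cells it was 16.8, 18.0 and 13.6 with DMSO and 26.1, 29.3 and 31.4 with FP54. The treatments did not overlap in either line, and the ratio was lower with FP54 in MOLM-13 cells and higher in NB4 cells. Exons of SHMT1 and SHMT2 overlap exons of the coding genes SMCR8 and NDUFA4L2 on the other strand, and whether reads were counted by strand is not given in the sources used here.

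**Figure D3:**
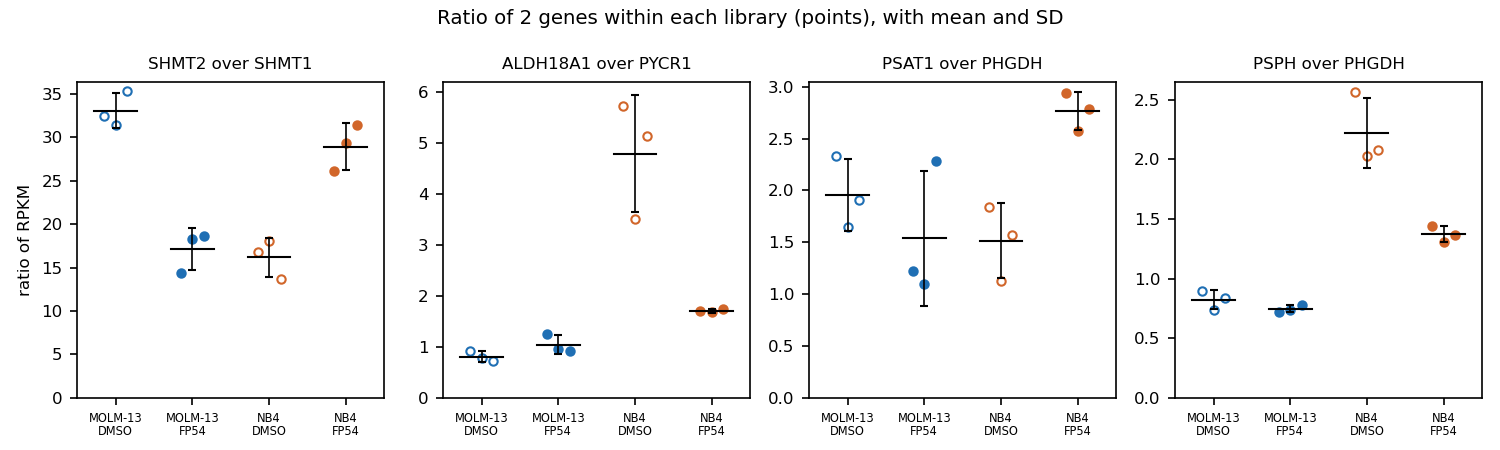
Ratio of the RPKM of 2 genes within each library (points, open for DMSO and filled for FP54), with the mean and SD of 3 libraries, on linear axes that start at 0. The ratio of SHMT2 to SHMT1 is lower with FP54 in MOLM-13 cells (17.1 against 33.0) and higher in NB4 cells (28.9 against 16.2), and that of ALDH18A1 to PYCR1 is lower with FP54 in NB4 cells (1.71 against 4.79).

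MTHFD2 (chr2:74186172-74217565, + strand), which is highly expressed in embryonic and many cancer cells, was the best covered of the 10, with up to 9107 reads in a library. In MOLM-13 cells it was at 36.1, 35.6 and 33.6 RPKM with DMSO and at 24.7, 24.1 and 26.8 RPKM with FP54, without overlap. The difference met the p cutoff (limma, adjusted p = 0.0272), but the log2 fold change of -0.48 ± 0.13 missed the fold cutoff. In NB4 cells MTHFD2 rose from 34.3, 28.6 and 35.6 RPKM to 58.9, 58.6 and 56.3 RPKM, a log2 fold change of 0.82 ± 0.095 (adjusted p = 5.89e-05). Its exons overlap those of SLC4A5 on the other strand, and 7 pseudogene copies are annotated.

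The 2 proline enzymes parted in NB4 cells. PYCR1 (chr17:81932384-81942412, - strand), the mitochondrial reductase of the last step, was at 9.64, 5.40 and 9.73 RPKM with DMSO and at 2.00, 3.74 and 5.04 RPKM with FP54 in MOLM-13 cells, and the nearest values of the groups were 5.40 and 5.04. Its log2 fold change was -1.22 ± 0.32 (adjusted p = 0.0281), and the call was lost without DMSO replicate 3 (adjusted p = 0.0993), without FP54 replicate 1 (adjusted p = 0.106) and without the filter on low values (adjusted p = 0.0778). In NB4 cells PYCR1 rose from 8.93, 11.8 and 9.99 RPKM to 20.2, 18.8 and 18.4 RPKM, a log2 fold change of 0.90 ± 0.11 (adjusted p = 8.55e-05). PYCR1 shares exon sequence on the same strand with the coding gene MYADML2.

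ALDH18A1 (chr10:95605941-95656711, - strand), the bifunctional enzyme of the first steps, was the single gene of the 10 that fell in NB4 cells. There it was at 51.2, 41.5 and 51.3 RPKM with DMSO and at 34.5, 31.5 and 32.2 RPKM with FP54, without overlap, a log2 fold change of -0.55 ± 0.099 (adjusted p = 0.00110). The value lay close to the fold cutoff, and the call was lost without DMSO replicate 1 (-0.50), without DMSO replicate 3 (-0.49) and after quantile normalization (-0.43). In MOLM-13 cells, ALDH18A1 was at 8.94, 4.19 and 7.05 RPKM with DMSO and at 2.52, 3.61 and 4.60 with FP54. DMSO replicate 2 lay within the FP54 range, and the log2 difference of -0.87 ± 0.29 was not called (adjusted p = 0.0584), though it was called without that library (-1.17, adjusted p = 0.0131). The ratio of ALDH18A1 to PYCR1 in NB4 cells was 5.74, 3.51 and 5.14 with DMSO and 1.70, 1.68 and 1.75 with FP54. In MOLM-13 cells it was 0.725 to 0.928 with DMSO and 0.913 to 1.26 with FP54, which overlapped.

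ALDH18A1 was also the single member with an E-box, CACGTG, in the promoter windows searched. RefSeq windows of 250 bases before a gene's start (GRCh38.p14) were found for 7 of the 10 genes, in 8 windows, and not for PSPH, SHMT2 and PYCR1. RefSeq starts can differ from the ends of the GENCODE spans given here, and the windows of PHGDH and MTHFD2 and 1 of ASNS lie inside those spans, while the other ASNS window and those of CTH and SHMT1 reach into them. The letters CACGTG, which read the same on both strands and which basic helix-loop-helix factors such as MYC can bind, occurred in 6.345% of the 35116 windows of all genes. Of the windows searched, only those that held a match are shown, whatever the change of the gene. The ALDH18A1 window (chr10:95656712-95656961, - strand) is given 5′ to 3′ on the gene's strand. The E-box, which begins 136 bases before the start, is in capitals. A match of letters is a description, not a binding site.
ALDH18A1: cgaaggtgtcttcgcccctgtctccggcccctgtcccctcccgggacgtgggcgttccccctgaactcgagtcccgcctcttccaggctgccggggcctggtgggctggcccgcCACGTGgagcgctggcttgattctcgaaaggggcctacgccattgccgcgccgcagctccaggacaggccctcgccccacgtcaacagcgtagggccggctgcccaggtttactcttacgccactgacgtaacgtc

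ASNS (chr7:97851677-97872542, - strand), which transfers an amino group from glutamine to aspartate, had the largest increase of the 10 genes in NB4 cells. It was at 9.29, 8.96 and 8.11 RPKM with DMSO and at 48.4, 51.0 and 47.2 RPKM with FP54, a 5.56-fold increase of the mean. The log2 fold change was 2.46 ± 0.086 (limma, adjusted p = 3.73e-08), the 69th largest among 9853 genes. In MOLM-13 cells ASNS was at 14.5, 10.5 and 13.5 RPKM with DMSO and at 6.32, 8.02 and 10.9 RPKM with FP54. FP54 replicate 3 lay above DMSO replicate 2, and the log2 difference of -0.63 ± 0.21 was not called (adjusted p = 0.0606). It was called without DMSO replicate 2 (-0.76, adjusted p = 0.0353) and without FP54 replicate 3 (-0.83, adjusted p = 0.0226). At least 4 differently named pseudogenes of ASNS are annotated, and reads that fit a copy equally well cannot be assigned from the deposited values.

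ASNS had a pair of promoter windows, and 1 of them held the letters TGATGNAA, the core shared by C/EBP-ATF composite sites, which dimers of ATF4 with a C/EBP protein can bind. Both strands were searched, and 3.144% of the 35116 windows held the letters. None of the windows of CTH, PHGDH, MTHFD2, PSAT1, ALDH18A1 and SHMT1 held them, which says only that these letters are not in those 250 bases. The ASNS window shown (chr7:97872409-97872658, - strand, GRCh38.p14, RefSeq) was picked because it held the match, and the other ASNS window is not shown. The sequence runs 5′ to 3′ on the gene's strand. The match, which begins 68 bases before the start, is in capitals.
ASNS: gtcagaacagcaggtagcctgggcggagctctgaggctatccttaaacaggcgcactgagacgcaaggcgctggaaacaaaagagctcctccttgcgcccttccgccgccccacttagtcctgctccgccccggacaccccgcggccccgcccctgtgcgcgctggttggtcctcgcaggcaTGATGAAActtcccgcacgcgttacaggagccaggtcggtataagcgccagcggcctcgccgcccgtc

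CTH (chr1:70411218-70439851, + strand), cystathionine gamma-lyase of the transsulfuration pathway, had the fewest reads. In MOLM-13 cells it was at 10.9, 7.60 and 8.67 RPKM with DMSO and at 3.93, 3.91 and 6.13 RPKM with FP54, without overlap, and the log2 fold change was -0.96 ± 0.21 (adjusted p = 0.0141). In NB4 cells it was at 1.58, 1.36 and 1.52 RPKM with DMSO and at 2.62, 2.31 and 2.38 RPKM with FP54, from 65 to 82 reads per library, and the log2 fold change was 0.68 ± 0.12 (adjusted p = 0.00110). CTH was called in NB4 cells with pseudocounts of 0.1 and 0.01, and not with a pseudocount of 1 (0.47) or after quantile normalization (0.30, adjusted p = 0.0562). Even with FP54, CTH in NB4 cells stayed under its lowest value in MOLM-13 cells.

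Over the 10 genes, the FP54 and DMSO libraries did not overlap for 8 genes in MOLM-13 cells (all except ASNS and ALDH18A1), where 37.1% of all genes tested did not overlap, and for 9 in NB4 cells (all except SHMT1), where 60.5% did not.

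The difference between the effects in the 2 lines was then tested itself, as the interaction in 1 limma model of the 12 libraries, called at an adjusted p below 0.05. The FP54 effect was higher in NB4 than in MOLM-13 cells for 8 of the 10 genes and lower for 0, beside 10.5% of 8849 genes that were higher and 3.75% that were lower. The differences were largest for PSAT1 (3.12 on the log2 scale, adjusted p = 6.67e-05) and ASNS (3.09, adjusted p = 1.10e-06), which stood 14th and 15th from the top of the 8849 genes. PYCR1 (2.12, adjusted p = 0.00196), PHGDH (1.81, adjusted p = 3.90e-05) and CTH (1.64, adjusted p = 0.000538) followed. SHMT2 (1.33, adjusted p = 3.90e-05), MTHFD2 (1.30, adjusted p = 4.85e-05) and PSPH (1.26, adjusted p = 0.00127) had smaller differences. The median of the 10 genes was 1.48 and that of all genes was 0.083. ALDH18A1 did not pass (0.32, 95% interval -0.39 to 1.04, adjusted p = 0.562), and neither did SHMT1 (-0.44, 95% interval -0.88 to 0.0091, adjusted p = 0.185). The count of 8 was the same without any 1 of the 12 libraries.

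The levels with DMSO alone were compared between the lines. In the same model, with the tables deposited separately for each line, 4 genes were higher and 4 lower in NB4 than in MOLM-13 cells at an adjusted p below 0.05, beside 40.3% of all genes higher and 33.7% lower, shares close to those of the 10 genes. ALDH18A1 was 2.88 higher on the log2 scale (48.0 ± 5.64 against 6.73 ± 2.39 RPKM, SD, n = 3, limma adjusted p = 6.04e-08), SHMT1 1.53 higher, PSPH 1.03 higher and SHMT2 0.56 higher. CTH was 2.51 lower (1.49 ± 0.115 against 9.05 ± 1.67 RPKM, adjusted p = 1.32e-08 for a log2 difference of -2.51). PSAT1 (-0.78, adjusted p = 0.0151), ASNS (-0.53, adjusted p = 0.0112) and PHGDH (-0.39, adjusted p = 0.0239) were lower by less. Their calls were lost without 1 library: MOLM-13 DMSO replicate 1 for ASNS (adjusted p = 0.0515) and PSAT1 (adjusted p = 0.0563), NB4 DMSO replicate 2 for PSAT1 (adjusted p = 0.0677), and MOLM-13 DMSO replicate 3 (adjusted p = 0.0923) or NB4 DMSO replicate 1 (adjusted p = 0.110) for PHGDH. MTHFD2 (-0.10) and PYCR1 (0.35) did not pass.

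The order of the levels per length differed between the groups. Within a group it depends on the exon lengths used. In DMSO replicate 1 of MOLM-13 cells, MTHFD2 had 6826 reads and SHMT2 had 3459, yet SHMT2 was higher in RPKM. With DMSO, MOLM-13 cells ranked PSAT1 (48.6 RPKM), SHMT2 (43.5), MTHFD2, PHGDH, PSPH, ASNS, CTH, PYCR1, ALDH18A1 and SHMT1, where PSAT1 overlapped SHMT2, and ASNS, CTH and PYCR1 each overlapped the next. NB4 cells with DMSO ranked SHMT2 (64.3 RPKM), ALDH18A1, PSPH, MTHFD2, PSAT1, PHGDH, PYCR1, ASNS, SHMT1 and CTH, where ALDH18A1 overlapped PSPH, MTHFD2 overlapped PSAT1, and PYCR1 overlapped ASNS. With FP54, ASNS in NB4 cells moved from rank 8 to rank 4 and PSAT1 from rank 5 to rank 2, while ALDH18A1 moved from rank 2 to rank 6, where it overlapped PHGDH. In MOLM-13 cells with FP54, SHMT2 (33.5 RPKM) and MTHFD2 (25.2 RPKM) had the highest means, and PSAT1 (19.3 RPKM), highest with DMSO, followed and overlapped both MTHFD2 and PHGDH.

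As a description of how the genes varied together, Pearson's r of log2(RPKM + 0.1) over the 12 libraries, centred within each line, was taken for the 45 pairs. The libraries share the treatment contrast, which dominates these values. The coefficient ranged from -0.84 (PSPH with SHMT1) to 0.96 (PSAT1 with CTH), with a median of 0.75, and 18 pairs were above 0.8. SHMT1 took part in 9 of the 11 pairs below 0, and ALDH18A1 with ASNS and with SHMT2 were the others (-0.12 each). The genes outside the 10 with the highest r with ASNS were PLAU (0.991), PLXNA1 (0.989), INHBE (0.987), SEL1L3 (0.987) and RHEX (0.986). Of these, INHBE, a secreted TGF-beta family subunit, went from 0.0675 to 4.02 RPKM in NB4 cells and from 2.03 to 0.702 RPKM in MOLM-13 cells.

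**Figure D4:**
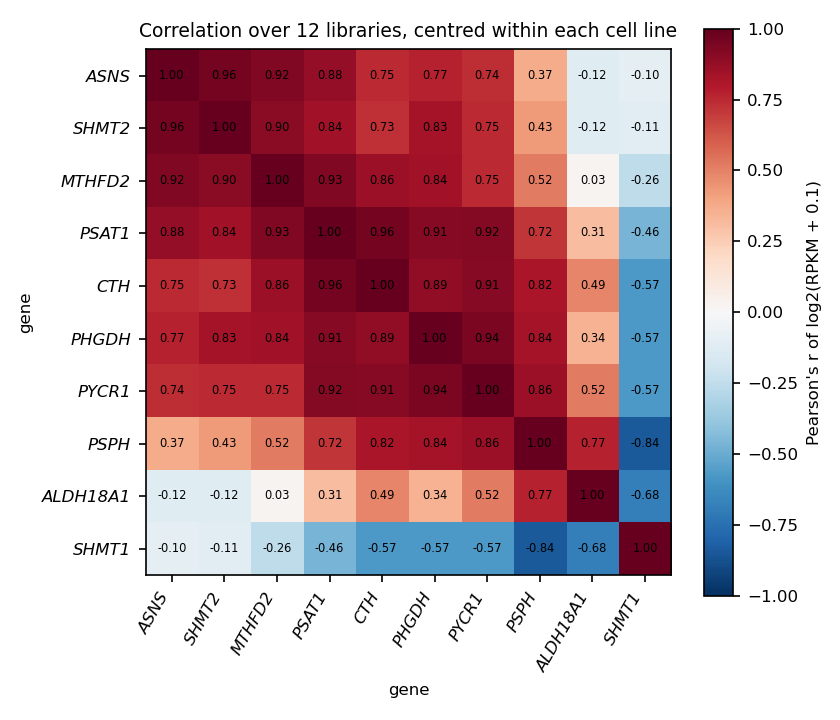
Pearson's r of log2(RPKM + 0.1) for each pair of the 10 genes over 12 libraries, centred within each cell line, with genes on both axes and the value printed in each cell. Colours run from -1 (blue) to 1 (red). ASNS, SHMT2, MTHFD2, PSAT1, CTH, PHGDH and PYCR1 form a red block, and SHMT1 is below 0 with every other gene.

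Other enzymes next to these pathways were counted in 4 lists. Of 10 tested asparagine, aspartate and glutamate enzymes, 4 fell in MOLM-13 cells, among them the transaminases GPT2 (-1.34), GOT1 (-1.07) and GOT2 (-0.88), and 0 rose, beside 9.04% and 9.3% of all genes. In NB4 cells 3 of 10 rose, ASL (1.00), GLUL (0.60) and GOT1 (0.59), and GOT2 fell (-0.57), beside 18.6% of all genes that rose and 10.7% that fell there. The interaction passed for 4 of 10, all higher in NB4 cells, beside 10.5% of all genes that were higher and 3.75% that were lower. The list's median log2 fold change was -0.35 in MOLM-13 and 0.35 in NB4 cells.

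Folate one-carbon and glycine cleavage enzymes fell in MOLM-13 cells for 5 of 12 tested, MTHFD1L (-1.21), ATIC (-1.09) and GART (-1.05) most, with 0 rising and a list median of -0.42, beside 9.04% of all genes that fell. In NB4 cells 1 of 15 rose and 1 fell (ATIC, -0.53), beside 18.6% and 10.7% of all genes, with a list median of -0.13. The gene that rose was ALDH1L2, the mitochondrial formyltetrahydrofolate dehydrogenase. It was at 0.893, 0.682 and 0.900 RPKM with DMSO and at 5.81, 7.43 and 7.15 RPKM with FP54 in NB4 cells, a log2 fold change of 2.90 (limma, adjusted p = 2.39e-07), and went from a mean of 8.53 to 4.84 RPKM in MOLM-13 cells (-0.84, adjusted p = 0.0342). The cytosolic MTHFD1 fell in MOLM-13 cells (-0.78, adjusted p = 0.0202), and in NB4 cells its log2 difference of -0.50 (adjusted p = 0.000664) lay just under the fold cutoff, whereas the mitochondrial MTHFD1L was at 0.05 there (adjusted p = 0.718). For this list the interaction passed for 2 of 12, higher in NB4 cells, beside 10.5% of all genes higher and 3.75% lower.

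Among proline, ornithine and arginine enzymes, 1 rose and 1 fell in each line, near the shares of all genes (9.3% and 9.04% for MOLM-13, 18.6% and 10.7% for NB4). P4HA1, a collagen prolyl hydroxylase subunit, rose in both lines (0.52 in MOLM-13 and 1.99 in NB4 cells), ARG2 fell in MOLM-13 cells (-1.16) and ALDH4A1 fell in NB4 cells (-0.57), of 8 and 6 tested, with list medians of -0.24 and 0.05. The interaction passed for 1 of 6, higher in NB4 cells, beside 10.5% of all genes higher and 3.75% lower. PYCR3 was under the filter in both lines. In the list of the methionine cycle, transsulfuration and glutathione, AHCY fell in MOLM-13 cells (-0.77), 1 of 12 tested, beside 9.04% of all genes. In NB4 cells 4 of 13 rose, CHAC1 (2.52), SDSL (1.44), GCLM (1.09) and SRR (0.59), and MAT2A fell (-0.66), beside 18.6% and 10.7% of all genes. The medians of that list were -0.17 and 0.19, and of 12 genes the interaction was higher in NB4 cells for 3 and lower for 1, beside the same shares of all genes, 10.5% and 3.75%. CBS, the enzyme before CTH, was under the filter in both lines (means of at most 0.586 RPKM).

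In a fixed list of 13 regulator and stress-response genes, not all of which encode transcription factors, the mRNA of ATF4 itself was called in neither line. It was at 323, 414 and 407 RPKM with DMSO and at 366, 396 and 273 RPKM with FP54 in MOLM-13 cells, and at 198, 286 and 203 RPKM with DMSO and at 294, 290 and 279 RPKM with FP54 in NB4 cells. The treatments overlapped in both lines, and the log2 differences were not called (-0.15, adjusted p = 0.571, and 0.35, adjusted p = 0.0421). In MOLM-13 cells 4 of 13 fell, TRIB3 (-1.11), ATF3 (-1.06), CEBPG (-0.71) and ATF5 (-0.53), and NUPR1 rose (1.15), beside 9.04% and 9.3% of all genes. In NB4 cells 9 of 12 rose, ATF5 (3.36), DDIT4 (2.71) and TRIB3 (2.27) most, and MYC fell (-0.94), beside 18.6% and 10.7% of all genes. The interaction passed for 8 of 12, all higher in NB4 cells, beside 10.5% of all genes that were higher and 3.75% that were lower. The medians of this list were -0.15 in MOLM-13 and 1.53 in NB4 cells.

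ATF5, a transcription factor of the same family whose translation is also controlled by eIF2 phosphorylation, was at 9.81, 11.5 and 9.83 RPKM with DMSO and at 104, 114 and 103 RPKM with FP54 in NB4 cells. In MOLM-13 cells it was at 61.9, 70.3 and 74.1 RPKM with DMSO and at 44.2, 48.3 and 50.0 RPKM with FP54. MYC was at 56.5, 13.8 and 40.2 RPKM with DMSO and at 5.91, 11.8 and 18.8 RPKM with FP54 in MOLM-13 cells, where DMSO replicate 2 lay within the FP54 range and the log2 difference of -1.52 was not called (adjusted p = 0.0567). The interaction of MYC did not pass (0.58, 95% interval -0.68 to 1.85, adjusted p = 0.553), and the part of MYC or of any regulator in the values of the 10 genes was not tested.

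**Figure D5:**
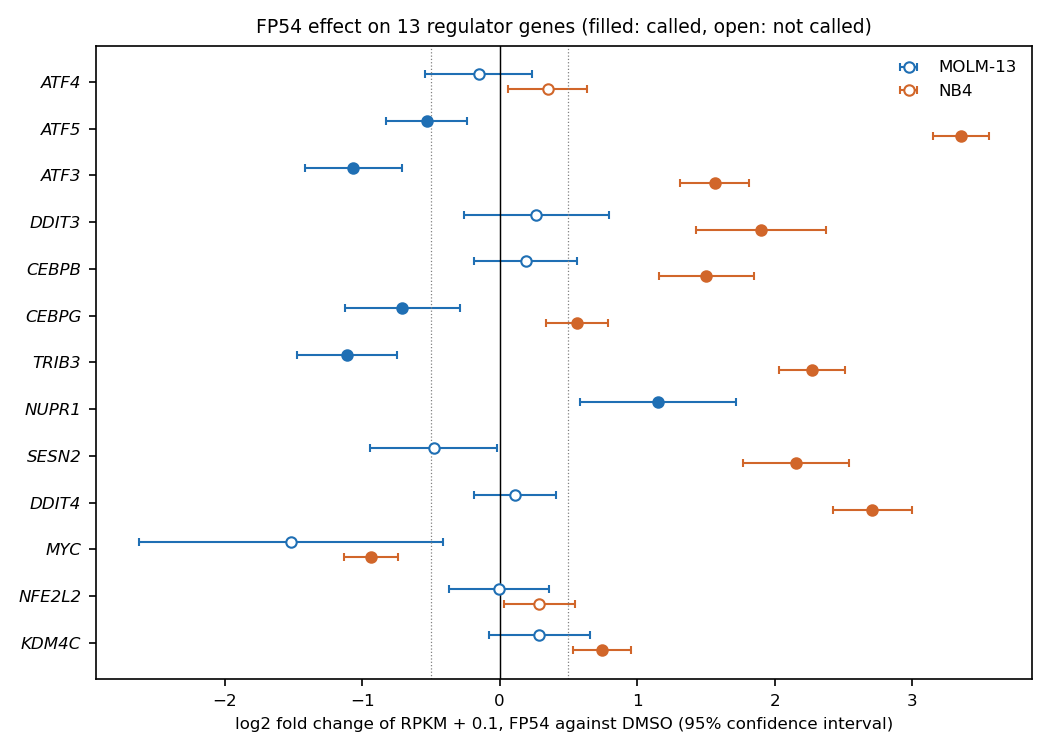
Log2 fold change of RPKM + 0.1, FP54 against DMSO, for the 13 listed regulator and stress-response genes in MOLM-13 (blue) and NB4 cells (orange), with 95% confidence intervals from limma and 3 libraries per group. Filled points passed the call rule, and NUPR1 was tested in MOLM-13 cells only. ATF4 was not called in either line (-0.15, and 0.35 with an interval of 0.06 to 0.64 in NB4 cells), while ATF5, TRIB3 and ATF3 lie left of 0 in MOLM-13 and right of 0 in NB4 cells.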

How the data were processed

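RNA-seq libraries of MOLM-13 and NB4 cells (3 with DMSO and 3 with FP54 each) were compared. Poly(A) RNA had been selected and made into libraries with a stranded kit. According to the methods, the authors trimmed reads with Cutadapt 4.8, removed duplicates with Clumpify, aligned to hg38 with STAR 2.7.11b and counted reads on protein-coding genes of GENCODE 42 with featureCounts 2.0.3. The deposited values are RPKM for 20411 genes. The length, library total and strand setting used are not given in the sources used here. Multiplying RPKM by exon lengths of GENCODE 44, found for 20330 genes, gave whole read numbers (within 0.05) for 98.7 to 99.4% of values under 20 reads, and from these the read totals.

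Because the tables hold RPKM and no counts, log2(RPKM + 0.1) was fitted with limma 3.58.1 (eBayes with a trend) in R 4.3.3, without a replicate block, over genes with a mean of at least 1 RPKM in the libraries of the fit. The call rule (p under 0.01, log2 change of 0.5 or more in size) is the cutoff of the study's methods, which applied it to a test on counts. A fold change on the log2(RPKM + 0.1) scale understates the change of low genes. Interaction and DMSO level came from 1 model of the 12 libraries. P-values were adjusted by Benjamini-Hochberg over all genes tested.

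All 10 genes were named in every comparison. From each list of related genes, up to 3 called genes with the largest change in each direction and cell line were named. ATF4, MYC, FTO, PYCR3, CBS, MTHFD1, MTHFD1L and ALDH1L2 were named whatever their values (1 further gene of this rule is not reported here), as were the 5 genes most like ASNS. SRR in NB4 cells, ATF5 in MOLM-13 cells and the values of ATF5 by library and the means of INHBE were added after their values were seen. The genes and lists were chosen with earlier results of these data known. Alternatives were other pseudocounts (1 and 0.01), no filter and a filter of 5 RPKM, median-ratio scaling, quantile normalization, a replicate block, eBayes without a trend, limma-voom on the recovered reads, other cutoffs and leaving out each library. The fit was tested on simulated data in which 200 genes had a log2 change of 1.5. It recovered 97.5% of them for MOLM-13 (9684 genes) and 100% for NB4 cells (9762 genes), with 63 and 16 false calls. The changed genes had a higher mean RPKM than the filter asks for, and errors were drawn independently for each gene. Changes smaller than 1.5, which all 10 genes had in MOLM-13 cells, were not simulated, so their recovery is not known. Tables were read with pandas 2.3.3 in Python 3.11.15.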

Additional observations from a re-analysis of the deposited data

Results flagged for a closer look

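For 8 of the 10 genes, the effect of FP54 differed between the cell lines by a test of the difference itself (limma interaction, adjusted p below 0.05). All 8 were higher in NB4 cells, beside 10.5% of 8849 genes tested that were higher and 3.75% that were lower. As the genes were chosen with earlier results of these data known, this comparison is a description only. On the log2 scale, NB4 minus MOLM-13, the effect differed by 3.12 for PSAT1, 3.09 for ASNS, 2.12 for PYCR1, 1.81 for PHGDH, 1.64 for CTH, 1.33 for SHMT2, 1.30 for MTHFD2 and 1.26 for PSPH. For PHGDH, PSAT1, PYCR1 and CTH the call was lower in MOLM-13 and higher in NB4 cells. For SHMT2, MTHFD2 and ASNS only the increase in NB4 cells was called, and for PSPH only the decrease in MOLM-13 cells.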

How the results depend on the processing

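Of 703 values of single genes under the alternatives, 676 kept their direction and their side of the threshold, 13 passed it newly, 13 no longer passed and 1 changed sign, SHMT1 in NB4 cells (-0.095 after quantile normalization, which moved the median of all genes in NB4 cells from 0.07 to -0.03). Of the 10 genes, the number called lower in MOLM-13 cells, 5, was 4 to 8 when 1 library was left out, 7 after median-ratio scaling and by limma-voom, 6 after quantile normalization and 4 without the filter. The number called higher there, 0, was 1 with eBayes without a trend (SHMT1) and 0 when any 1 library was left out. In NB4 cells the number called higher, 7, was 6 with a pseudocount of 1, after quantile normalization and with a filter of 5 RPKM, 2 at p below 0.05 with a log2 change of at least 1, and 7 without any 1 library. The number called lower there, 1, was 0 after quantile normalization and at that stricter cutoff, and 0 to 1 when 1 library was left out. The interaction count of 8 was 7 with a filter of 5 RPKM, which leaves 8 of the 10 genes, and 9 after quantile normalization, where SHMT1 passed (-0.72, adjusted p = 0.0421). The DMSO count of 8 was 6 to 8 without 1 library. The share of all genes called was not counted under the alternatives, so these counts stand without that comparison. Same-numbered libraries did not deviate together (r of -0.26, -0.13 and -0.06 in MOLM-13 cells and -0.14, 0.07 and 0.12 in NB4 cells). Each group of 3 libraries was centred on its own mean, so these values depend on each other and cannot exclude pairing by number. Differently numbered MOLM-13 libraries ranged from -0.46 (DMSO replicate 3 with FP54 replicate 1) to 0.59 (DMSO replicate 1 with FP54 replicate 3). The r was 0.49 for DMSO replicate 2 with FP54 replicate 1 and 0.47 for DMSO replicate 3 with FP54 replicate 2. Every other pair of a DMSO and an FP54 library of MOLM-13 cells was below 0. No such match is given in the labels, and none was modelled. With a replicate block 6 genes were called lower in MOLM-13 cells, ALDH18A1 being added, and 7 higher and 1 lower in NB4 cells, with 8 in the interaction. FP54 replicate 2 of MOLM-13 cells was the shallowest library, with 5829730 reads, of which 55 were of CTH.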
